A study of Mus musculus with 18 samples.

Results

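Of the 18 libraries of the series, 6 were taken for this comparison by their titles: 3 RT-RamDA libraries made from 10 pg of purified total RNA with random hexamers (N6), and 3 bulk libraries made from 200 ng. RT-RamDA is a reverse transcription for very small samples in which cDNA strands are displaced and copied again from the same RNA molecule. All 6 libraries hold RNA of 5G6GR mouse embryonic stem cells, an established line grown without feeder cells on gelatin in serum medium with LIF, puromycin and blasticidin. The N6 libraries were finished with the DNA SMART ChIP-Seq kit and 17 PCR cycles, and the labels' protocol names no rRNA depletion for them. The bulk libraries were made with the KAPA RNA HyperPrep Kit with RiboErase, which removes rRNA, and 7 PCR cycles, and their reverse transcription primer is also given as N6. Input, chemistry, rRNA depletion and cycles therefore all change together between the groups, and their parts in any difference cannot be told apart. The labels do not say that the replicates came from separate cultures, so the p-values measure only the spread between these libraries, which may be technical.

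A random hexamer can anneal anywhere along an RNA and needs no poly(A) tail, so it primes rRNA, mitochondrial RNA, histone mRNA and small structured RNA as well as messenger RNA. Ribosomal RNA makes up most of the RNA mass of a cell. A short RNA offers few places for a random primer, and cDNA of the last bases before its 3′ end is hard to obtain.

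The N6 libraries held 7666446, 7634615 and 7625252 estimated counts in genes, and the bulk libraries held 10234690, 9875411 and 9943178. All 12 ES cell markers had counts in each of the 6 libraries. Bulk replicate 2 stood apart: its 13 primitive endoderm markers summed to 12200 TMM-scaled CPM (counts scaled so that libraries are set against each other by their typical gene and not by their totals), against 1270 and 1110 in bulk replicates 1 and 3 and 1290 to 1640 in the N6 libraries. In that library Lama1, a basement membrane laminin chain, was at 1900 TMM-scaled CPM, against 316 and 293 in the other bulk libraries. The fibroblast feeder list summed to 2310 to 2600 TMM-scaled CPM in the N6 and 1680 to 2150 in the bulk libraries, with its markers Dcn, Lum and Postn at 0 in all 6. The part of these cell type markers in the results was not tested, and the counts below are also given without bulk replicate 2 where that library changes them.

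Genes grouped here as rRNA-related or mitochondrial took 66.4% ± 0.413 (SD, n = 3) of all estimated counts in the N6 libraries. In the bulk libraries they took 12.8% ± 0.414. Beside rRNA-annotated and mitochondrial genes, the group holds loci annotated otherwise, among them the lincRNA loci Gm42418 and Gm26917 and protein-coding Lars2. The 18S rRNA locus Rn18s-rs5 alone took 19.5, 19.2 and 18.8% of the N6 libraries, against 0.56, 0.573 and 0.536% of the bulk libraries. The N6 libraries all lay above the bulk libraries, with no overlap. Rn18s-rs5 lies at chr17:39846353-39848827 on the minus strand in GRCm38, and the lincRNA locus Gm42418 lies inside the same interval on the plus strand at chr17:39846958-39848788. Whether the counting used strand is not given in the sources used here, so the split between the overlapping genes is uncertain. Their sum was 37.8, 38.3 and 37.9% of the N6 libraries and 1.9, 1.98 and 1.88% of the bulk libraries, which is a 19.8-fold difference in share.

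The next annotated gene in this rDNA repeat, Gm26917 at chr17:39843013-39846341, behaved differently. Its share of all counts was 3.15% ± 0.172 in the N6 and 8.42% ± 0.305 in the bulk libraries. On TMM-scaled CPM it was at 47500, 51100 and 53700 in the N6 and 53700, 50500 and 53800 in the bulk libraries. These groups overlapped, with a log2 ratio of means of -0.05. The 12S and 16S mitochondrial rRNAs, mt-Rnr1 (chrM:70-1024) and mt-Rnr2 (chrM:1094-2675), together took 11.7% of the N6 counts and 0.0187% of the bulk counts.

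A further 11.9% of the N6 counts, against 0.00355% of the bulk counts, fell on 4 loci grouped here as rRNA-like, a property taken as background and not tested, among them Lars2, AA474408 and Gm15662. Lars2, which encodes mitochondrial leucyl-tRNA synthetase (chr9:123366927-123462666), was at 141000, 148000 and 146000 TMM-scaled CPM in the N6 libraries and 12.3, 17.7 and 11.4 in the bulk libraries. The groups were far apart, with a log2 fold change of 13.36 ± 0.24 (SE) and an adjusted p of 2.31e-07 (edgeR quasi-likelihood test, Benjamini-Hochberg). A pair of annotated microRNA loci with identical sequence, Gm24270 and Gm23935, each stood at 1350, 1400 and 1470 TMM-scaled CPM in the N6 libraries and 18.5, 21.9 and 19.9 in the bulk libraries. With the third such copy, Gm24245, they summed to 4220 ± 175 against 60.3 ± 5.2, and since the sequence is shared their separate values are uncertain.

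The genomic sequences of this pair of annotated microRNA loci are shown because so many N6 counts fell on so few bases. They are read from GRCm38 5′ to 3′ in the direction of the annotated strand, with Gm24270 at chr9:56223715-56223771 (-) and Gm23935 at chr16:11144125-11144181 (+).
Gm24270: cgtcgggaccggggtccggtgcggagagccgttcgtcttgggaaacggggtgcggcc
Gm23935: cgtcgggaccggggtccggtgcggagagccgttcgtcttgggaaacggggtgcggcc

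**Figure D1:**
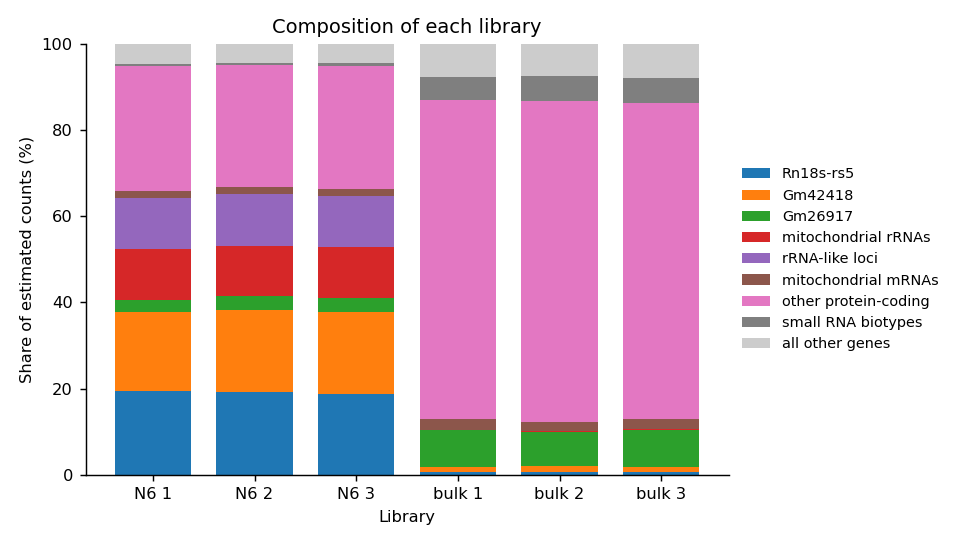
Share of estimated counts by class in each of the 6 libraries, in percent. The N6 bars are dominated by rRNA-related and mitochondrial genes, which hold 66.4% of their counts on average, and the bulk bars by protein-coding genes.

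Protein-coding genes other than the mitochondrial ones and Lars2 took 28.6% ± 0.37 of all N6 counts and 73.9% ± 0.566 of all bulk counts. With rRNA-related and mitochondrial genes set aside, 2612931, 2541852 and 2552437 counts remained in the N6 libraries and 8655781 to 8897921 in the bulk libraries. Of these remaining counts, protein-coding genes took 85.0% ± 0.164 in the N6 and 84.8% ± 0.459 in the bulk libraries. Small structured RNA classes took 1.86% against 6.53% of the remaining counts, and processed pseudogenes took 2.83% against 1.73%. Unprocessed pseudogenes took 2.48% in the N6 and 1.06% in the bulk libraries. Nuclear copies of mitochondrial mRNAs were not among the genes set aside. Summed with its copy Gm10925, mt-Atp6 was at 4380 TMM-scaled CPM in the N6 and 2040 in the bulk libraries. By itself mt-Atp6 was at 107, 233 and 71.8 against 1960, 1410 and 1750. The part of such copies in the pseudogene shares was not tested. Pseudogene counts are uncertain because reads can be split between a pseudogene and its parent gene. The protein-coding share of the remaining counts was not separated between the groups (exact two-sided permutation p = 0.7). Each of the other shares, with the protein-coding share of all counts among them, was separated. Their exact two-sided permutation p was 0.1, the smallest that 3 against 3 libraries can give. Of 56 shares compared in this way, 52 reached that value, with a Benjamini-Hochberg adjusted p of 0.108.

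Within protein-coding genes, transcripts annotated as retaining an intron took 7.52, 7.67 and 7.7% of the counts in the N6 libraries and 5.85, 6.12 and 6.21% in the bulk libraries. Every N6 library lay above every bulk library. Transcripts of the nonsense-mediated decay class took 2.7% ± 0.02 against 1.89% ± 0.0202, and processed transcripts took 3.25% ± 0.0414 against 2.29% ± 0.0619. These 3 classes each had an exact permutation p of 0.1. Counts of isoforms of a gene are estimates that depend on the quantifier, which is not given in the sources used here.

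Across genes, expression levels in the N6 libraries followed the order in bulk, with a Spearman correlation of 0.879, 0.88 and 0.879 between each N6 library and the mean of the bulk libraries over 16130 genes. The mean of the 3 N6 libraries reached 0.924. These correlations are descriptions across genes, which share libraries and are not independent. Among 9288 genes at 10 bulk CPM or more (the mean of the bulk libraries, each scaled by its own total), pairs of N6 libraries correlated at 0.841 to 0.842 with each other and at 0.848 to 0.852 with bulk replicates 1 and 3. Against bulk replicate 2 the N6 libraries correlated at 0.819 to 0.82, while bulk replicates 1 and 3 correlated at 0.992.

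**Figure D2:**
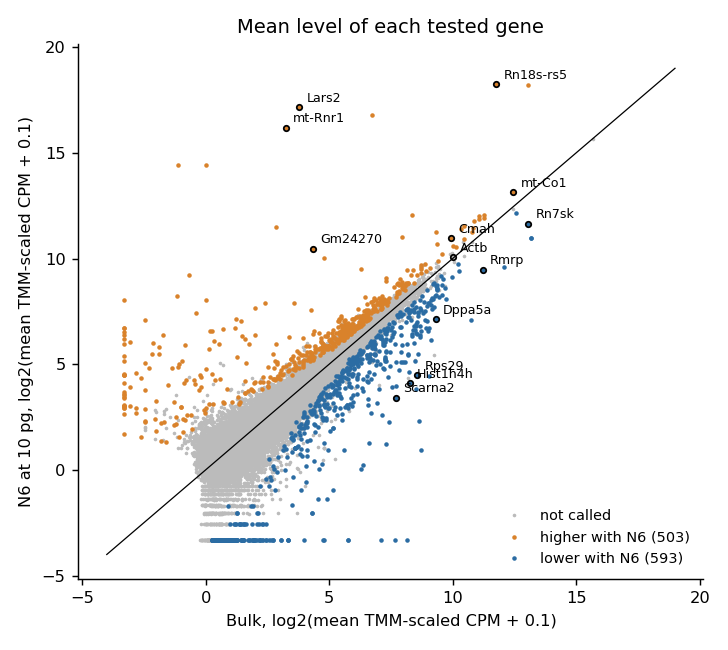
Mean TMM-scaled CPM of the 3 N6 libraries against that of the 3 bulk libraries, both on log axes, with 1 point per tested gene. Colours mark genes called higher, called lower or not called, and some named genes are labelled. Most genes lie along the diagonal, the labelled Rn18s-rs5, mt-Rnr1 and Lars2 lie above it, and labelled short abundant mRNAs and small RNAs lie below it.

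Of 15207 genes tested, 503 (3.31%) were higher and 593 (3.9%) lower in the N6 than in the bulk libraries at an adjusted p under 0.05 in edgeR, 1096 (7.21%) in all. The median log2 fold change was -0.03. With library totals as the only scaling, the median of all genes moved to -1.39, so the values below are changes relative to the typical gene. The groups of libraries did not overlap for 4935 genes (32.5%), so non-overlap alone is common here. The counts rest on all 3 bulk libraries: leaving out bulk replicate 1, 2 or 3 left 174, 186 or 166 higher and 189, 216 or 193 lower genes. Leaving out an N6 library gave 859 to 875 higher and 1166 to 1281 lower genes.

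Transcript length ordered the differences among protein-coding genes. The median log2 fold change was -0.92 for 155 genes with transcripts under 500 bases, -0.67 for 763 genes of 500 to 1000, -0.29 for 2535 genes of 1000 to 2000 and -0.04 for 5056 genes of 2000 to 4000. It was 0.13 for 3271 genes of 4000 to 8000 and 0.22 for 590 longer genes. Genes under 1000 bases were called lower in 200 of 918 cases (21.8%) and higher in 31 (3.38%), against 55 lower (1.42%) and 164 higher (4.25%) of 3861 genes of 4000 bases and over. Among all 12370 protein-coding genes tested, 3.78% were lower and 2.43% higher. Without bulk replicate 1, 2 or 3 the lower genes under 1000 bases numbered 107, 117 or 109 and the higher ones 17, 18 or 19, and the higher genes of 4000 bases and over numbered 24, 23 or 19 with 0, 1 or 0 lower. The rank correlation of length and log2 fold change was 0.257 across these genes.

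The shift was deepest among short genes that were abundant in bulk. At 1 to 10 bulk CPM there was no such order. There the median was 0.25 for 53 protein-coding genes under 500 bases, and -0.42, -0.31, -0.12 and -0.11 in the following bins. It was -0.3 for 106 genes over 8000 bases. Non-coding and other genes were not ordered by length either, with medians of 0.01, 0.26, 0.24, 0.19, 0.11 and 0.35 from the shortest to the longest bin. At 100 bulk CPM or more, 48 protein-coding genes under 500 bases had a median of -1.89, with 35 lower and 1 higher, and 123 genes of 500 to 1000 bases had a median of -1.03, with 82 lower and 3 higher. Without any 1 bulk library the shorter group kept its median near this value, from -1.92 to -1.83, with 28 genes lower, and the group of 500 to 1000 bases had 63, 67 or 63 genes lower and none higher. Without histone, ribosomal protein and respiratory chain genes, the difference between the longest and the shortest bin was 0.65, against 1.14 with them.

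Base composition also moved with the difference. Over 11707 protein-coding genes with a matched transcript sequence (94.6%), the median log2 fold change was 0.44 for 626 genes under 40% GC, of which 74 were higher and 13 lower. It was -0.33 for 549 genes of 60% GC and over, of which 6 were higher and 31 lower. Without bulk replicate 1, 2 or 3 the higher genes under 40% GC numbered 24, 23 or 17, with medians of 0.46, 0.41 and 0.42, and the lower genes of 60% GC and over 14, 13 or 14. The opposite calls shrank as well, to 1, 2 or 1 lower genes under 40% GC and to 2 higher genes each time at 60% GC and over. The rank correlation with GC content was -0.276, and GC content and length were themselves correlated at -0.217. The GC order was also seen within some length bins. For transcripts of 1000 to 2000 bases the median ran from 0.57 to -0.46 between the lowest and highest GC bin, and for 4000 to 8000 bases from 0.47 to -0.21. Under 500 bases it was not kept, with medians of -0.53, -1.16, -1.88 and -0.39 from the 45 to 50% GC bin upward. At 500 to 1000 and 2000 to 4000 bases the highest GC bin turned back, from -0.92 to -0.67 and from -0.21 to -0.16. The separate parts of GC content and length in the difference were not tested. Abundance went with it less: the median was -0.24 at 3 to 10 bulk CPM, 0.07 at 100 to 300 and -0.24 over 1000.

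**Figure D3:**
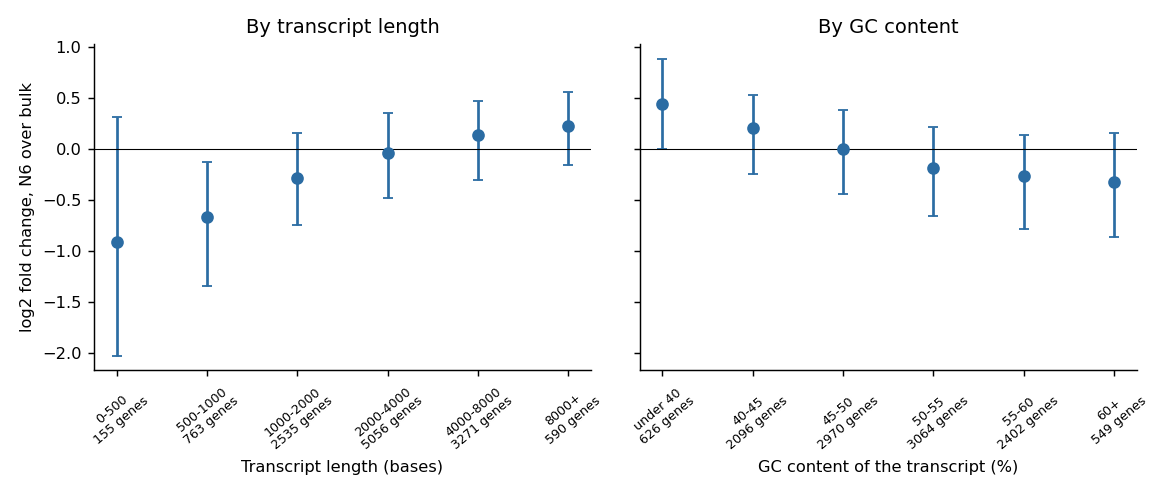
Log2 fold change of N6 over bulk for protein-coding genes by transcript length in bases and by GC content in percent, as medians with quartiles per bin. The medians rise from -0.92 in the shortest to 0.22 in the longest bin and fall from 0.44 to -0.33 with GC content.

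Cytoplasmic ribosomal protein mRNAs, which are short and among the most abundant in ES cells, were mostly lower in the N6 libraries. Of 51 large subunit genes tested, 37 were lower and 3 higher, with a median log2 fold change of -1.15, and of 33 small subunit genes 25 were lower and 2 higher, with a median of -1.19. Rps29, a small subunit protein (390 bases), was at 25, 14.4 and 26.9 TMM-scaled CPM in the N6 libraries and 382, 371 and 393 in the bulk libraries. Its groups were widely separated, and its log2 fold change was -4.11 ± 0.24 (SE; adjusted p = 9.6e-05, edgeR). Rpl38, a large subunit protein (371 bases), was at 34.4, 34.5 and 35 in the N6 and 247, 253 and 253 in the bulk libraries, a log2 fold change of -2.86 ± 0.1 (adjusted p = 1.44e-05, edgeR). The N6 libraries were nearly identical for this gene. Rpl4, a longer large subunit mRNA (1422 bases), was at 1210, 1140 and 1160 against 1070, 987 and 1050 TMM-scaled CPM, and its log2 fold change of 0.18 ± 0.07 did not pass (adjusted p = 0.215, edgeR), with a sign that turned to -1.19 under library totals.

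Ordered by length, 17 ribosomal protein genes under 500 bases had a median of -1.87, 27 genes of 500 to 750 bases had -1.31, and 23 genes of 750 to 1000 bases had -1.0. The 15 genes of 1000 to 2000 bases still had a median of -1.06, where all protein-coding genes of that length had -0.29. The ribosomal protein genes called higher were Rps12, Rps27, Rpl10, Rpl11 and Rpl35, named here after their values were seen. Of these, 4 have near-identical genes, and their direction turned when those were added. Rps12 was listed at 0 in all bulk libraries, and summed with its 4 near-identical genes it had a log2 ratio of means of -0.9. Summed with its copy Rps27rt, Rps27 was at -1.89, and with their copies Rpl10 was at -0.53 and Rpl11 at -0.44. No near-identical copy was found for Rpl35, at 109, 100 and 115 against 63.8, 65.7 and 71.6 TMM-scaled CPM, and its call was lost without any 1 of the bulk libraries. Without a bulk library none of the large subunit genes was higher, and 32 or 33 were still lower. Of the ribosomal protein genes called lower, only Rps29 and Rps27rt were searched for copies. The effect of such sums on the other lower calls was not tested.

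The nuclear genes of the respiratory chain, the inner mitochondrial membrane complexes that pass electrons to oxygen and make ATP, were also lower. Of 36 complex I genes tested 15 were lower and none higher, with a median of -1.23, and all 36 had a log2 fold change below 0. Without bulk replicate 1, 2 or 3 only 3, 4 or 4 of them were still called lower. Of 40 genes of complexes II to V, 22 were lower and 1 higher, with a median of -1.03, and 13 were lower without any 1 bulk library. Cox7c, a small subunit of cytochrome c oxidase (540 bases), was at 14.2, 5.72 and 7.0 TMM-scaled CPM in the N6 and 133, 111 and 127 in the bulk libraries, a log2 fold change of -3.78 ± 0.33 (adjusted p = 0.00077, edgeR). The N6 libraries differed among themselves by more than the bulk libraries, yet all lay far below them. The 1 higher gene was Uqcrc2, a core subunit of complex III, named after its value was seen, and its call was lost without any 1 bulk library. Mitochondrial ribosomal protein genes had a median of -0.48 over 77 genes with Mrpl18, Mrpl36 and Mrpl54 lower, and none of these 3 calls was left without a bulk library.

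**Figure D4:**
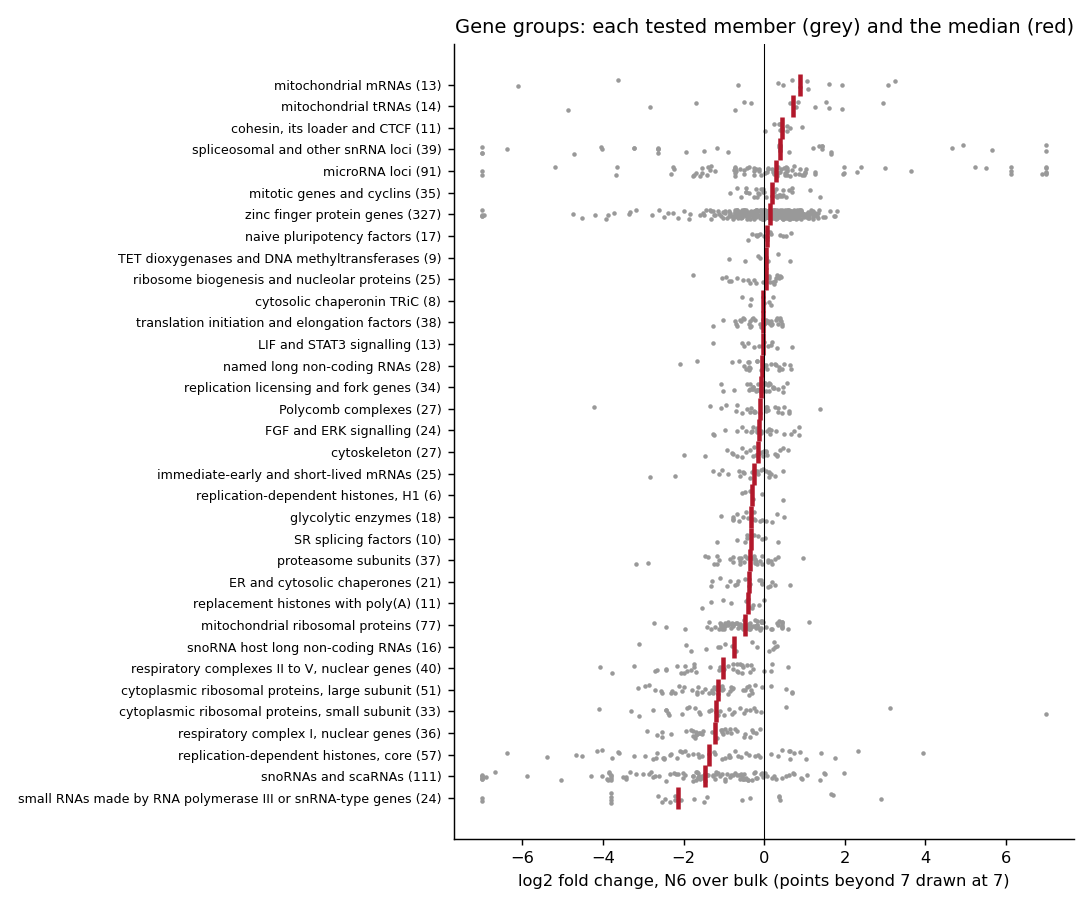
Log2 fold change of N6 over bulk for the tested members of gene lists, with 1 point per gene and the median of each list marked. Ribosomal protein, respiratory chain and core histone lists lie mostly below 0. So do the snoRNA and scaRNA list and that of RNA polymerase III and snRNA-type transcripts. Mitochondrial mRNAs lie mostly above 0, and the snRNA, microRNA and mitochondrial tRNA lists have medians of 0.39, 0.29 and 0.71.

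The mRNAs encoded by mitochondrial DNA went the other way relative to the typical gene. Of 13, 8 were higher and 2 lower, with a median of 0.88, although under library totals alone 4 were higher and 7 lower, with a median of -0.48. Their share of all counts was in fact smaller, at 1.59% in the N6 and 2.39% in the bulk libraries. mt-Co1, the catalytic subunit of cytochrome c oxidase, was at 8850, 9070 and 9230 TMM-scaled CPM in the N6 and 5960, 5330 and 5540 in the bulk libraries, a log2 fold change of 0.69 ± 0.06 (adjusted p = 0.00074, edgeR) that turned to -0.68 under library totals. mt-Atp8, a small subunit of ATP synthase (204 bases), rose from 275, 221 and 245 in bulk to 2330, 1990 and 1940 in the N6 libraries, with a log2 fold change of 3.08 ± 0.12 (adjusted p = 2.39e-05, edgeR). The 204 bases are those of its annotated entry, which need not be the length of the RNA in the cell. It differed in the opposite direction to most of the short nuclear mRNAs that were called. How reads were split between it and other mitochondrial genes was not tested. The 2 called lower were mt-Nd3, a complex I subunit, and mt-Atp6, an ATP synthase subunit, and both have a near-identical nuclear copy. Summed with those copies, mt-Nd3 had a log2 ratio of means of 0.77 and mt-Atp6 of 1.1, and after such sums all 13 ranged from 0.35 (mt-Nd1) to 3.08 (mt-Atp8).

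Mitochondrial tRNAs could be tested for 14 of 22 genes, of which 2 were lower and none higher, with a median of 0.71; at an unadjusted p under 0.05 edgeR had 4 higher, and DESeq2 called 1 higher. mt-Ts1, a tRNA for serine, was at 0.208, 0.212 and 1.27 TMM-scaled CPM in the N6 and 17.4, 17.1 and 16.1 in the bulk libraries (adjusted p = 0.00672, edgeR). mt-Ty, a tRNA for tyrosine, was at 2.29, 4.23 and 1.27 against 20.2, 16.8 and 18.7 (adjusted p = 0.0151, edgeR). For both genes the groups were separate, but the mt-Ts1 call was lost without bulk replicate 1 or 2 and the mt-Ty call without any 1 bulk library. Their sequences, of 69 and 67 bases, are shown as examples. The list had a median length of 68 bases, and 8 of its 14 tested genes had a log2 fold change above 0. In GRCm38 mt-Ts1 lies at chrM:6870-6938 (-) and mt-Ty at chrM:5260-5326 (-).
mt-Ts1: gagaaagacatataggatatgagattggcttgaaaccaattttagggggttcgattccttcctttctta
mt-Ty: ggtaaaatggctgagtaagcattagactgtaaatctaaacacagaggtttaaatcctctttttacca

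Small structured RNAs that act in the nucleus and in translation were among the transcripts most reduced in the N6 libraries. Of 24 genes tested in the list of RNA polymerase III and snRNA-type transcripts, 10 were lower and 1, the Y RNA Rny1, was higher, with a median log2 fold change of -2.13, and 8 were lower without any 1 bulk library, where the median reached -1.58 without bulk replicate 2. Rn7sk, the scaffold of the complex that holds back the elongation factor P-TEFb, was at 2950, 3400 and 3280 TMM-scaled CPM in the N6 and 8420, 8430 and 8710 in the bulk libraries, a log2 fold change of -1.41 ± 0.07 (adjusted p = 5.87e-05, edgeR). Rmrp, the RNA of the RNase MRP enzyme, was at 621, 744 and 771 against 2360, 2410 and 2340, a log2 fold change of -1.73 ± 0.1 (adjusted p = 9.42e-05, edgeR). Both RNAs were lower in every N6 than in any bulk library. Rn7s1 and Rn7s2, the RNAs of the signal recognition particle, near-identical and therefore summed, were at 3980 ± 35.4 in the N6 and 18400 ± 1700 TMM-scaled CPM in the bulk libraries. Rpph1, the RNA of RNase P, was at 780 ± 79.6 against 4300 ± 584. Rny1 was at 11.3, 3.39 and 11.2 against 1.35, 0.824 and 1.26, and its call was lost without any 1 bulk library. The summed genes and Rpph1 were chosen after their values were seen.

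Small Cajal body RNAs, which guide the modification of spliceosomal RNAs, summed to 54.5, 40.3 and 34.5 TMM-scaled CPM in the N6 and 333, 387 and 366 in the bulk libraries. This was a log2 ratio of means of -3.07, and the groups did not overlap. Small nucleolar RNAs, the guides for rRNA modification, summed to 337 ± 31.4 against 915 ± 48.7, a log2 ratio of -1.44. Of 1559 snoRNA and scaRNA genes listed, 111 could be tested and 18 were lower and 1 higher, with a median of -1.46, and 9 or 10 were lower without a bulk library. Scarna2 was at 14.6, 8.89 and 8.28 in the N6 and 192, 219 and 216 TMM-scaled CPM in the bulk libraries, a log2 fold change of -4.3 ± 0.23 (adjusted p = 9.16e-05, edgeR). Scarna13 was at 6.88, 10.8 and 7.85 against 53.5, 57.9 and 62.7, a log2 fold change of -2.77 ± 0.23 (adjusted p = 0.000568, edgeR). Spliceosomal snRNA genes as a class went slightly the other way, at 706 ± 93.1 against 507 ± 33.3, although of 39 tested 8 were higher and 13 lower, with a median of 0.39 that was -0.97 under library totals, -1.47 when genes of low counts were not filtered out and 0 without N6 replicate 1. Without bulk replicate 1, 2 or 3 the lower snRNA genes numbered 3 each time and the higher ones 6, 5 or 6. Most snRNA genes are members of multi-copy families, so single values are uncertain.

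The sequences of Rmrp (chr4:43492788-43493058, -) and Scarna13 (chr12:105031075-105031349, -) are shown as examples of RNAs below 300 bases that fell. They are read from GRCm38 on the annotated strand, and capitals in Scarna13 mark the ACA that lies 3 bases before its 3′ end, the box for which H/ACA RNAs are named.
Rmrp: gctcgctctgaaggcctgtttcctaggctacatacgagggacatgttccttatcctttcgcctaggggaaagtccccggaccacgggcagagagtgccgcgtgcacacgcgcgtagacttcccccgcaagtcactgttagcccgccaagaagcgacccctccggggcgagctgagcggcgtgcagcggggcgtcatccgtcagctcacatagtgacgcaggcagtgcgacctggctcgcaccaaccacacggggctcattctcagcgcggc
Scarna13: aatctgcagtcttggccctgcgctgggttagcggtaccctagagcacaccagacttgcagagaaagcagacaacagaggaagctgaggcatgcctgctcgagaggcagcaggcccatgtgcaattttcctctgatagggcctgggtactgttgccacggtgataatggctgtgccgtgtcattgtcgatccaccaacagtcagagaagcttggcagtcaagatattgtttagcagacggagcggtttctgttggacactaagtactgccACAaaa

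Processed pseudogenes, intronless copies of mRNAs, were more often higher than lower. Of 390 tested, 88 were higher and 18 lower, with a median log2 fold change of 0.68 that was -0.68 under library totals. Without bulk replicate 1, 2 or 3 the higher ones numbered 49, 56 or 51 and the lower ones 9, 11 or 10. Reads can be split between a parent mRNA and such a copy, so single values are uncertain, and the part of that split in these counts was not tested.

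Replication-dependent histone mRNAs, which end in a stem-loop and carry no poly(A) tail, were lower for the core histones. Of 57 core histone genes tested 31 were lower and 4 higher, with a median of -1.37, and 27 were lower without any 1 bulk library. The 4 higher were Hist1h2ai, Hist1h2an, Hist1h2bl and Hist1h2br, named after their values were seen, and Hist1h2ai summed with its 12 near-identical genes had a log2 ratio of means of -0.9. Because histone genes are so alike, their single values are uncertain and each class was also summed. The H4 genes summed to 332, 328 and 388 TMM-scaled CPM in the N6 and 2140, 2110 and 2300 in the bulk libraries, a log2 ratio of means of -2.64. The H3 genes summed to 544 ± 56.2 against 1290 ± 54.5, the H2A genes to 756 ± 21.8 against 1420 ± 37.2 and the H2B genes to 1380 ± 73.9 against 1900 ± 58.0. The linker histone H1 genes were closest, at 1180 ± 65.8 against 1350 ± 18.7, a log2 ratio of -0.19. None of the 5 class sums overlapped between the groups. The replacement histones, whose mRNAs carry a poly(A) tail, had a median of -0.41 over 11 genes, with 2 lower. These were H2afz, the variant found at promoters, at 112, 141 and 128 against 391, 338 and 385 (log2 fold change -1.55 ± 0.12, adjusted p = 0.000445, edgeR), and H2afx, the variant phosphorylated at DNA breaks, at 60.3, 84.9 and 68.8 against 176, 164 and 190.

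Core pluripotency factors and ES cell markers were called about as often as all genes. Of 27 tested, 1 (3.7%) was higher and 1 (3.7%) lower in edgeR, against 3.31% and 3.9% over all genes. Their median was -0.06, against -0.03 over all genes. At an unadjusted p under 0.05, 4 were higher and 7 lower, where 3190 of all 15207 genes passed in either direction, and DESeq2 called 3 higher and 3 lower. The 12 ES cell markers summed to 4770, 4750 and 5080 TMM-scaled CPM in the N6 and 6770, 5610 and 6510 in the bulk libraries, so every N6 library lay below every bulk library. Of 17 naive factors none was called in edgeR, where 3 were higher and 1 lower at an unadjusted p under 0.05, while DESeq2 called 3 higher. Pou5f1, the central transcription factor of pluripotency, was at 188, 200 and 245 TMM-scaled CPM in the N6 and 317, 249 and 315 in the bulk libraries, a log2 fold change of -0.48 ± 0.15 that did not pass (adjusted p = 0.107, edgeR). Nanog, a homeodomain factor, was at 251, 245 and 283 against 296, 223 and 293, and its groups overlapped. Sox2, the partner of Pou5f1, was at 212, 230 and 235 against 255, 182 and 257 and overlapped too. Dppa5a, a short ES cell transcript (619 bases) encoding an RNA-binding protein, was the exception, at 148, 126 and 150 against 671, 635 and 614. Its log2 fold change was -2.18 ± 0.1 (adjusted p = 5.41e-05, edgeR), and its call held without each bulk library. Rif1, a long mRNA (8502 bases) for a replication timing protein, was at 813, 750 and 992 against 513, 422 and 486, a log2 fold change of 0.85 ± 0.13 (adjusted p = 0.0109, edgeR). The Rif1 call was lost without bulk replicate 2 or 3 and its sign turned to -0.52 under library totals.

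Lists of genes for chromosome structure and division had medians that differed in sign. Over all tested genes 3.31% were called higher and 3.9% lower. The shares called higher were 9.09% for the cohesin list, 11.4% for mitotic genes and 3.7% for Polycomb genes. Called lower were 0, 0 and 7.41% of these lists. Each of these shares rests on 4 genes or fewer. All 11 genes of cohesin, its loader and CTCF had a log2 fold change above 0, with a median of 0.43 that was -0.93 under library totals, and 1 of them passed the test. That gene was Nipbl, the cohesin loader (8815 bases), at 247, 214 and 257 TMM-scaled CPM in the N6 and 125, 124 and 126 in the bulk libraries, a log2 fold change of 0.93 ± 0.11 (adjusted p = 0.00266, edgeR) that was -0.43 under library totals. Its N6 libraries all lay well above the bulk libraries. Of 35 mitotic genes Ccne2, Cenpf, Mki67 and Top2a were higher (4 genes), with a list median of 0.2, and without bulk replicate 1, 2 or 3 this became 0, 1 or 0. Of 27 Polycomb genes, which encode repressors acting on chromatin, Mtf2 was higher and Cbx7 and Rbbp4 lower, with a median of -0.1, and without bulk replicate 1, 2 or 3 none was higher and 0, 1 or 0 lower. Cbx7, a chromodomain protein (6057 bases), was at 58, 52.1 and 64.3 against 114, 98.1 and 124 TMM-scaled CPM, a log2 fold change of -0.95 ± 0.14 (adjusted p = 0.0105, edgeR). Cenpf, a kinetochore protein (11130 bases), was at 180, 308 and 298 against 126, 114 and 119, with a call that was lost without any 1 bulk library and a sign that turned to -0.24 under library totals. Of 327 zinc finger genes 16 (4.89%) were higher and 9 (2.75%) lower, near the shares of 3.31% and 3.9% over all genes, with a median of 0.14, and without bulk replicate 1, 2 or 3 only 3, 2 or 1 were higher and none lower. Zfp600, a zinc finger gene (4244 bases, 36.2% GC), was at 300, 309 and 245 against 122, 101 and 117, a log2 fold change of 1.33 ± 0.13 (adjusted p = 0.00153, edgeR) that was -0.04 under library totals. Replication licensing and fork genes had a median of -0.07 over 34 genes, none of which was called in edgeR or in DESeq2, and 2 were lower at an unadjusted p under 0.05 in edgeR.

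The usual reference mRNAs were close between the groups on the TMM scale. Actb, cytoplasmic actin, was at 1040, 1110 and 1050 TMM-scaled CPM in the N6 and 1020, 1100 and 990 in the bulk libraries, and Gapdh, a glycolytic enzyme, at 1350, 1520 and 1460 against 1450, 1280 and 1450. Both genes overlapped between the groups, with log2 fold changes of 0.04 ± 0.07 and 0.05 ± 0.08 that became -1.33 and -1.32 under library totals. Malat1, a nuclear long non-coding RNA (6983 bases), was lower at 4510, 4370 and 4840 against 5940, 6080 and 6190, a log2 fold change of -0.41 ± 0.06 (adjusted p = 0.00869, edgeR), and its call was lost without bulk replicate 3. Long non-coding RNAs that host snoRNAs in their introns had a median of -0.75 over 16 genes with 5 lower, which became 0, 2 or 0 without bulk replicate 1, 2 or 3. One of them, Gas5, was at 125, 122 and 125 against 205, 196 and 200 TMM-scaled CPM, and its call was lost without bulk replicate 1 or 3.

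Fewer genes were detected from 10 pg. After thinning each library to 7624975 counts, 18026, 17736 and 17920 genes had at least 1 count in the N6 libraries and 24450, 25051 and 24691 in the bulk libraries. The N6 libraries were lower, at 17894 ± 147 against 24730.7 ± 302 genes (a difference of -6836.7), with no overlap and an exact two-sided permutation p of 0.1, the smallest the design allows. Next, rRNA-related and mitochondrial genes were removed and the rest thinned to 2541630 counts. This left 17793.7 ± 128 against 21581.7 ± 245 genes, a difference of -3788. Of protein-coding genes seen in any N6 library 70.0% were seen in all 3, against 84.1% in bulk, and for lincRNAs the shares were 32.8% and 54.1%.

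Detection depended on the level in bulk. An N6 library on average detected 29.8% of genes at 0.1 to 1 bulk CPM, 60.7% at 1 to 3, 83.8% at 3 to 10, 97.3% at 10 to 30 and 99.6% at 30 to 100. The corresponding shares for a bulk library were 55.6, 96.7, 99.6 and 100% up to 30 CPM. All 3 N6 libraries together held 63.6% of genes at 3 to 10 bulk CPM. At this bulk level the share of protein-coding genes found by all 3 was 74.7% of 198 genes under 1000 bases and 43.2% of 74 genes over 8000 bases, and at 10 to 30 bulk CPM it was 95.9% and 78.1%. At 1 to 3 bulk CPM there was no such order, with 36.5% of 181 genes under 1000 bases, 23 to 25.8% in the bins between and 36.7% of 49 genes over 8000 bases. On a per-length scale all 3 N6 libraries held 34.3% of protein-coding genes at 1 to 3 bulk TPM, a length-scaled unit, 78.1% at 3 to 10 and 97.7% at 10 to 30.

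Of 9288 genes at 10 bulk CPM or more, 23 (0.248%) had no count in any N6 library. A count of 0 over the 3 libraries allows up to 0.131 CPM of the library totals, a limit that covers counting error only. These 23 included Rpl10-ps3 and Gm10222, near-identical copies of Rpl10 and mt-Nd4l. They also included the snoRNA genes Rnu3a and Snora74a, which were not searched for copies. Another 7 were over 10 CPM only in bulk replicate 2, among them Hs3st1, Bmper and Thbd. These genes were named after their values were seen. Conversely 84 genes had counts in all 3 N6 libraries and none in bulk, led by Rps12 and several processed pseudogenes.

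The N6 libraries differed from each other more than the bulk libraries did. The median coefficient of variation over genes at 3 to 10 bulk CPM was 0.857 in the N6 and 0.152 in the bulk libraries, where counting error alone would give 0.258 in the N6 libraries. It fell to 0.475 against 0.0989 at 10 to 30 CPM and to 0.294 against 0.0679 at 30 to 100. Over 1000 CPM it was 0.0559 against 0.0552. The bulk spread rests in part on bulk replicate 2: without it the bulk value was 0.0434 in place of 0.0762 over all genes of 10 CPM or more, and 0.028 over 1000 CPM. Among genes of 10 TMM-scaled CPM or more in any N6 library, 351 of 9124 (3.85%) were at 0 in another N6 library, and 279 of these were protein-coding. The same was true of 1 of 8247 genes in bulk. Libraries were not thinned for this comparison. At the same TMM-scaled CPM a bulk library holds more counts than an N6 library, so the groups are compared at unlike depth.

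**Figure D5:**
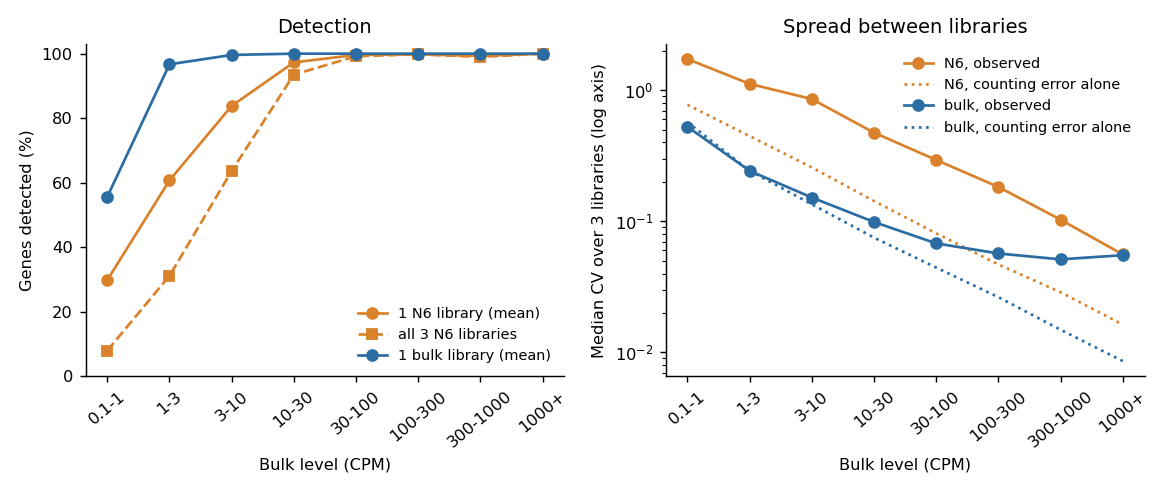
Share of genes detected in percent, and median coefficient of variation between replicates, by bulk CPM bin, for the N6 and bulk libraries. Detection with N6 climbs from 29.8% at 0.1 to 1 CPM to 99.6% at 30 to 100, and the spread of the N6 libraries meets that of all 3 bulk libraries only over 1000 CPM (0.0559 against 0.0552, or 0.028 without bulk replicate 2).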

How the data were processed

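The values are estimated counts per transcript, deposited by the authors in a table of 115125 transcript entries, which were summed to 47643 genes, with 92 spike-ins set aside. The build mm10 and bcl2fastq 2.16.0.10 are named per the submitters' processing notes, and for the quantifier, its strand setting and its annotation version the entry is: not given in the sources used here. Columns were matched to samples by title. Sums were rounded and tested with edgeR 4.0.16 (R 4.3.3) by the quasi-likelihood F test on the 6 libraries with TMM scaling, filterByExpr and Benjamini-Hochberg adjustment, called under 0.05. The test code was run on simulated data first. Log2 fold changes are N6 over bulk. Shares and detected genes were compared by exact permutation (scipy 1.17.1). GC content, coordinates and sequences came from the GENCODE annotation of GRCm38. Lengths came from the deposited transcript entries. Each gene was given the length of its transcript with the highest mean count over these 6 libraries, so gene length rests on the isoform estimates. Copies were searched for by sequence only for the ribosomal protein genes called higher, the mitochondrial mRNAs and some further named genes. Genes holding at least 50% of the 31-base words of such a gene were treated as near-identical.

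Depth was 7625252 to 7666446 gene counts in the N6 and 9875411 to 10234690 in the bulk libraries, and intervals or limits cover counting error only. Genes named were the 10 called genes most changed each way whose mean log2 CPM reached 5 and whose groups did not overlap, without predicted genes and pseudogenes, the most abundant and lowest-p members of each list, the most abundant gene of each length bin and a set of reference genes; not every one is printed, and others are said to be chosen after their values were seen, as were Gm26917 and the histone class sums. The members and lists were chosen with earlier results of these data known. Alternatives were edgeR's RLE factors, library totals, TMM without rRNA-related and mitochondrial genes, other filters, DESeq2 1.42.0, all 18 libraries and leaving out each library. Sums over near-identical genes, and the spread per abundance bin without each library, were added after seeing the data.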

Additional observations from a re-analysis of the deposited data

Results flagged for a closer look

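The spike-in RNAs were not used in any comparison above. Of 28 spike-ins with over 300 counts in the 6 libraries, 25 took a share of all spike-in counts in the N6 libraries between 0.259 and 1.94 times that in bulk. The other 3 stood out as signal outside the main measurement: ERCC-00099 at 20.1 times, ERCC-00145 at 22.6 times and ERCC-00014 at 403 times its bulk share. ERCC-00014 had 982, 1112 and 905 counts in the N6 and 10, 12 and 5 in the bulk libraries. The cause was not tested.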

How the results depend on the processing

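No paired analysis was possible because the N6 libraries carry well names and the bulk libraries numbers. Genes called higher and lower numbered 141 and 8585 with library totals, 227 and 380 with no filter, 1116 and 959 in DESeq2 and 264 and 320 with 18 libraries, and leaving out 1 library gave 166 to 875 and 189 to 1281. The longest minus the shortest length bin was 0.89 with the longest transcript of each gene and 0.65 without histone, ribosomal and respiratory genes. The abundance difference (100 to 300 minus 3 to 10 bulk CPM) was 0.31, 0.35 in bins of the mean level of all 6 libraries and 0.24 to 0.39 leaving out 1 library. The deficit in detected genes was -3829.3 at 5 counts, -3788 without rRNA-related and mitochondrial genes and -7654.3 without thinning. Bulk bins from replicates 1 and 3 gave 62, 84.9 and 97.9% detection. The median CV over 10 CPM was 0.315 in N6 (0.25 to 0.258 leaving out 1) and 0.0762 in bulk (0.0434 to 0.0748, the lowest without bulk replicate 2). The rank correlation was 0.845 at 10 CPM or more and 0.876 to 0.885 leaving out 1. The protein-coding share difference after removal of rRNA-related and mitochondrial genes was 0.218, and the small RNA one was -4.67. Of 76 called genes tracked, 23, 20 and 28 lost the call without bulk replicate 1, 2 and 3. Library totals reversed mt-Co1 (-0.68), mt-Nd4 (-0.29), mt-Cytb (-0.9), Rpl4 (-1.19), Rpl10 (-0.82), Rpl11 (-0.67), Rpl35 (-0.68), Rif1 (-0.52), Tet1 (-0.73), Nipbl (-0.43), Cenpf (-0.24), Mki67 (-0.68), Top2a (-0.91), Zfp600 (-0.04), Zfp534 (-0.26), Cmah (-0.34), Nedd4 (-0.77), Hsp90aa1 (-0.73), Actb (-1.33), Gapdh (-1.32), Kcnq1ot1 (-0.92), Lncenc1 (-0.71), Psmd1 (-0.41), Ncl (-0.94), Eno1 (-0.88) and Uqcrc2 (-0.78). Sums with near-identical genes reversed Ftl1 (-0.78), Rps12 (-0.9), Rps27 (-1.89), mt-Nd3 (0.77), mt-Atp6 (1.1), Rpl10 (-0.53), Rpl11 (-0.44) and Hspa8 (0.43). Beyond those constructions, the cause was not tested.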
